A study of Mus musculus with 4 samples.

Results

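Chemokines are small secreted proteins that attract cells along their gradient, and chemokine receptors are the G protein-coupled receptors that read them. In the thymus they bring blood-borne progenitors into the organ, hold immature thymocytes in the cortex, move selected cells into the medulla and call dendritic cells and B cells to their places. Most of the thymic ligands are made by epithelial and other stromal cells, and most of the receptors sit on thymocytes and other blood cells.

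The members described here were all probes of an Illumina MouseWG-6 v2.0 bead array whose target name is CCL, CXCL, XCL, CX3CL, CCR, CXCR, XCR or CX3CR followed by a digit, without CCR3 and CCR7. This gave 50 of the 31490 target names on the array, read by 71 of its 45281 probes. Of the names, 37 are ligands (55 probes) and 13 are receptors (16 probes). No measured value entered that rule. The arrays read total RNA of whole thymus from C57BL/6 mice of 2 genotypes, a miR-181d transgenic line (named Tg-8 in the design text, 2 arrays) and a miR-181d knockin line (2 arrays). The tissue label reads whole thymus, although the series title speaks of thymocytes. Each array held RNA of 1 sample, and the comparison asks which transcripts differ between these lines. The labels give neither the promoter of the transgene, nor how the knockin allele was built, nor the age of the mice, and no wild-type thymus enters the comparison. They also do not say that replicates came from separate mice. The p-values measure the spread between these arrays, which may be technical between the transgenic arrays. The knockin arrays differed in sex-linked transcripts, given below, so they did not read the same RNA.

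miR-181d is a microRNA of the miR-181 family, which is known to set how strongly thymocytes respond through their T cell receptor. Its mature strand is shown with its relatives because it is the molecule that both lines were engineered for, and a microRNA finds its targets mainly through its seed. The sequences are those of RefSeq (GRCm38.p6), written 5′ to 3′ with the seed, bases 2 to 8, in capitals.
miR-181d-5p: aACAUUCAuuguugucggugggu
miR-181b-5p: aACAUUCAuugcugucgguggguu
miR-181a-5p: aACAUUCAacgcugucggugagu
miR-181c-5p: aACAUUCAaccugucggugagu
RefSeq places miR-181d-5p at chr8:84178759-84178781 on the minus strand. All 4 share the seed ACAUUCA, and they differ in the bases after it. Target sites in the transcripts of the chemokine genes were not analysed here.

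Median probe signal was 140.5 to 145.8 over the 4 arrays. The background limit of an array fell at a signal of 151.4 to 157.6, which 39.7% to 41.2% of probes exceeded. With 2 arrays per genotype, every value has low precision. All 10 markers of double-positive thymocytes, the main cell of the organ, were above background, as were 9 of the 11 measured markers of thymic epithelium, Foxn1 and Epcam being the exceptions. Knockin replicate 2 stood apart in its sex-linked transcripts, with an Xist signal of 129.5 against 4366 and 4392 on the transgenic arrays and 4570 on knockin replicate 1, and with Ddx3y at 3519 against 484.4 to 553.7 on the other arrays. That is a male pattern, while the other arrays had a female one. For each member probe with an unadjusted p under 0.05, the difference is therefore also given without knockin replicate 2, or as a range over leaving out each array. All 4 arrays lay on 1 slide, with each genotype in its own pair of positions, so position and genotype cannot be told apart.

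Of the 71 probes, 44 were above background on both arrays of at least 1 genotype, and 42 of these on all 4 arrays. They stood for 26 of the 37 ligand names and 5 of the 13 receptor names. The rest had a bound rather than a level, and 22 probes were above background on no array. A level on these arrays belongs to its probe, so levels of different genes are not set against each other below. Signal is the deposited average bead signal, and each difference is transgenic minus knockin in normalised log2 signal, with its limma standard error.

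**Figure D1:**
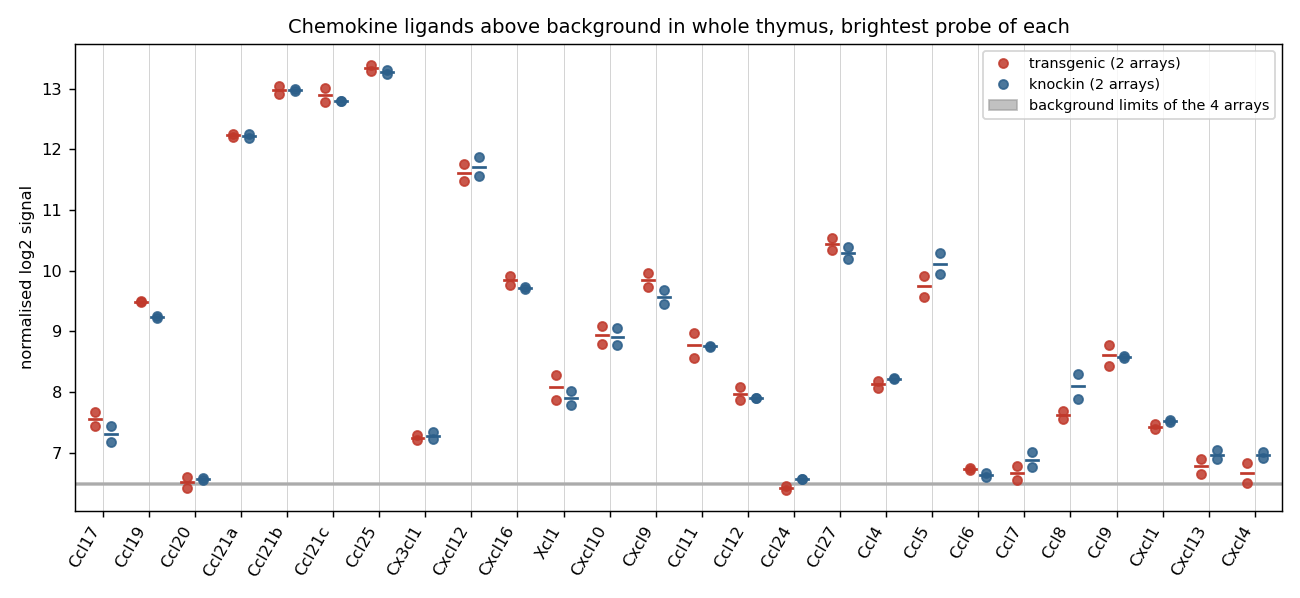
Normalised log2 signal (vertical axis) of the 26 chemokine ligands above background, each by its brightest probe, on the 2 transgenic arrays (red, left) and the 2 knockin arrays (blue, right). Short bars are group means, the grey band spans the background limits of the 4 arrays, and Ccl19, Cxcl9, Ccl5 and Ccl8 are among the ligands whose groups do not overlap.

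With limma and Benjamini-Hochberg adjustment over all probes, no member differed between the genotypes at an adjusted p under 0.05. Across the array 36 probes, 0.0795% of all, passed that threshold. At an unadjusted p under 0.05 there were 10 member probes, 4 higher and 6 lower in transgenic thymus. They are 14.1% of the 71 member probes, against 4.63% of all probes, with 2.17% higher and 2.46% lower over the array. All 10 were above background, which makes 22.7% of the 44 such members, against 8.82% of the 17980 probes above background (4.05% higher and 4.77% lower). The 4 with higher signal were both probes of Ccl19, a probe of Ccl27 and the probe of Cxcl9. The 6 with lower signal were probes of Ccr6, Ccl8, Ccl5, Cxcl4, Cxcl12 and Cx3cr1. The lowest of these differences was -0.47 and the highest 0.38. The probes of Ccl19 read the same transcript, so the 10 probes are 9 genes. With each of the 4 arrays left out in turn, only the second probe of Ccl19 and the brighter probe of Ccr6 kept an unadjusted p under 0.05 every time. Without knockin replicate 2 there were 8 such member probes, 6 of them among the 10, a share of 11.3% against 3.95% of all probes.

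As a list the members did not lean to either side. Over the 44 probes above background the median difference was 0.012, against 0.00089 over all 17980 such probes. Among the 44 there were 24 differences above 0, which is 54.5%, against 50.3% of all probes above background. The median size of a difference, whatever its sign, was 0.126 among the 44 and 0.101 among all. The groups did not overlap in 28 of the 71 probes (39.4%, against 32.7% of all probes) and in 19 of the 44, with 8 higher and 11 lower in transgenic thymus, a share of 43.2% against 32.2% of all probes above background.

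**Figure D2:**
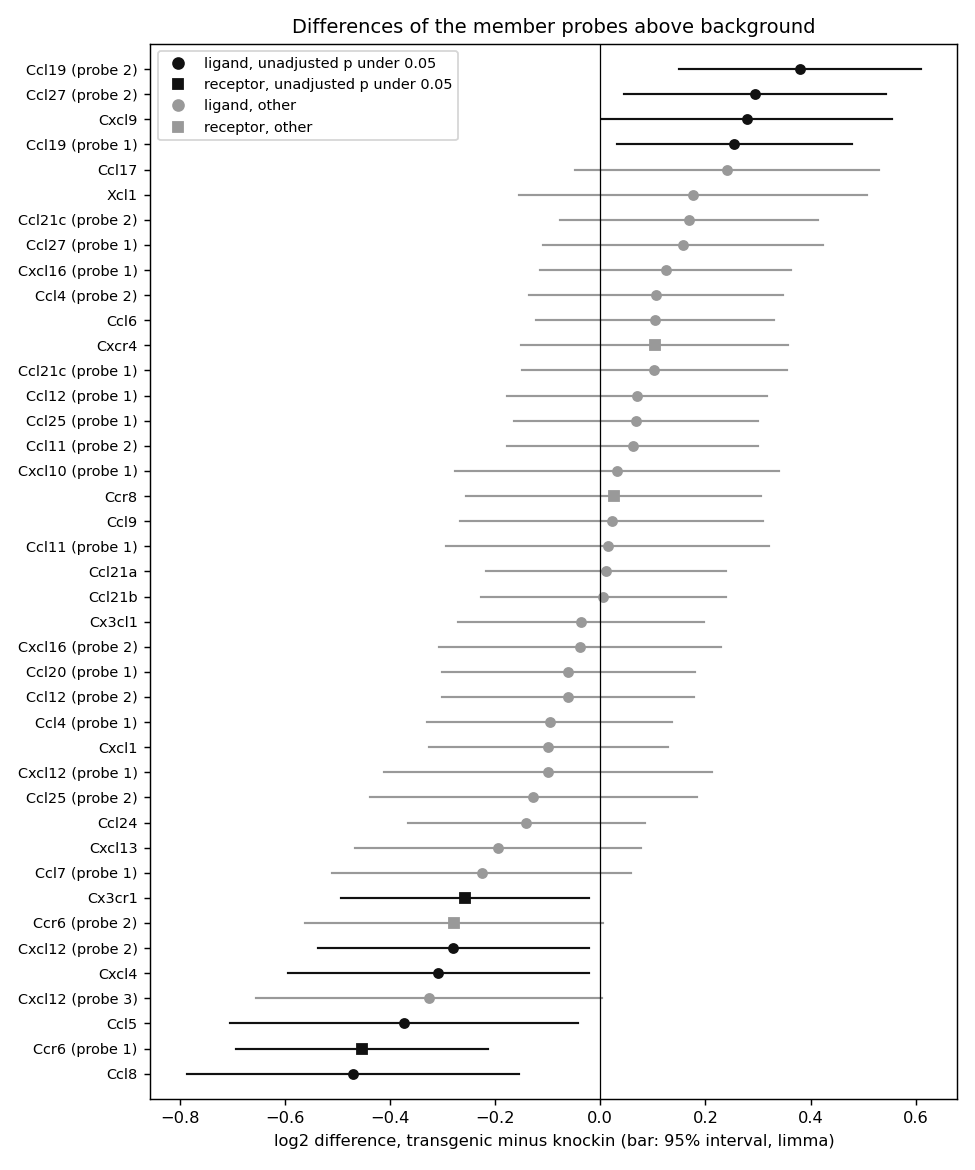
Log2 difference, transgenic minus knockin, of 41 member probes above background (horizontal axis), with its 95% interval from limma. Black marks have an unadjusted p under 0.05, circles are ligands and squares are receptors. The differences run from -0.47 (Ccl8) to 0.38 (the second probe of Ccl19).

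Ccl25 and Cxcl12 are the cortical ligands that draw and hold immature thymocytes. Ccl25, the ligand of Ccr9 made by thymic epithelium, gave a signal of 10093 and 10120 in transgenic thymus, against 10101 and 10495 in knockin thymus, on its brightest probe. The groups overlapped on this probe, with a difference of 0.07 (SE 0.103, 95% interval -0.16 to 0.30). The second Ccl25 probe read 8209 and 9952 in transgenic thymus, against 10368 and 10351 in knockin thymus, and its difference was -0.13 (SE 0.139). Transgenic replicate 1 was the low array there, and without it the difference was 0.07.

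Cxcl12, the ligand of Cxcr4, was read by 5 probes, of which 3 were above background on all 4 arrays and 2 on none. Its brightest probe read 2989 and 3218 in transgenic thymus, against 2993 and 4203 in knockin thymus, and the difference was -0.10 (SE 0.139). The second probe read 1279 and 1253 in transgenic thymus, against 1443 and 1806 in knockin thymus. On that probe the groups did not overlap, and the difference of -0.28 (SE 0.115) had a limma unadjusted p of 0.0361, with an adjusted p of 1.00.
The third probe read 891.4 and 990.6 in transgenic thymus, against 1201 and 1250 in knockin thymus, a difference of -0.33 (SE 0.146, limma unadjusted p = 0.0515). Over all 4 arrays the 3 bright probes had differences of -0.33 to -0.10, but single arrays moved them. The brightest was at 0.04 without transgenic replicate 1 and at 0.06 without knockin replicate 2. The second was at -0.17 without transgenic replicate 1 and at -0.22 without knockin replicate 2, and the third at -0.11 and -0.41 without these arrays. Fibroblasts and endothelium also make Cxcl12. The 6 fibroblast markers had a summed signal of 4176 and 5209 in transgenic thymus, against 4601 and 6259 in knockin thymus, with Col1a2 and Col3a1 not above background. Dcn made up most of these sums. All 6 differences were below 0, with a median of -0.14, and Col3a1 had a limma unadjusted p of 0.0328. The 6 endothelial markers summed to 1829 and 1509 in transgenic thymus, against 1489 and 1729 in knockin thymus, with Kdr not above background. Of the 6, 3 had differences below 0, and Pecam1 stood at 0.31 (limma unadjusted p = 0.0180, adjusted p = 0.957). The part of fibroblasts and endothelium in the Cxcl12 values was not tested.

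Ccl19 and Ccl21 are the medullary ligands of Ccr7, which guide selected thymocytes out of the cortex. The brightest Ccl19 probe gave a signal of 826.8 and 703.9 in transgenic thymus, against 632.3 and 746.1 in knockin thymus. These signals overlap, but the normalised levels do not, with 9.49 ± 0.01 in transgenic and 9.23 ± 0.01 in knockin thymus (SD, n = 2 each). The difference was 0.26 (SE 0.0998), with a limma unadjusted p of 0.0295 and an adjusted p of 1.00. The second Ccl19 probe gave a signal of 563.5 and 472.3 in transgenic thymus, against 411.8 and 450.4 in knockin thymus. There both transgenic signals exceeded both knockin signals, and transgenic thymus had 1.30-fold the knockin level (log2 0.38, SE 0.102, limma unadjusted p = 0.00435, adjusted p = 0.633). This was the largest difference above 0 among the members. Leaving out each array in turn, the difference stayed between 0.33 and 0.43 on that probe and between 0.25 and 0.26 on the brightest. In bulk tissue fewer cells of a type and less RNA per cell cannot be told apart, for Ccl19 and every gene that follows.

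The Ccl21 genes are near-identical copies, so their single names are uncertain. The probe named Ccl21a differed by 0.01 (SE 0.102, 95% interval -0.22 to 0.24) and that named Ccl21b by 0.01 (SE 0.104, 95% interval -0.23 to 0.24). The 2 probes named Ccl21c differed by 0.10 and 0.17 (SE 0.113 and 0.110), the brighter one being given first. Ccl21a gave a signal of 4909 and 4576 in transgenic thymus, against 4598 and 5397 in knockin thymus. The summed signal of the thymic epithelium markers was 12658 and 11553 in transgenic thymus, against 10143 and 13562 in knockin thymus. These ranges overlap, and none of the 11 measured markers had an unadjusted p under 0.05.

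Ccl27, a skin-homing ligand of Ccr10 that RefSeq lists as Ccl27a, had 2 probes above background on all arrays. The brighter probe read 1433 and 1399 in transgenic thymus, against 1345 and 1368 in knockin thymus, with a difference of 0.16 (SE 0.119). The dimmer probe read 401.0 and 332.4 in transgenic thymus, against 317.6 and 326.1 in knockin thymus. On the dimmer probe the groups did not overlap, and the difference was 0.29 (SE 0.111), with a limma unadjusted p of 0.0250 and an adjusted p of 1.00. It was 0.20 without knockin replicate 2.

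Ccl27a, the Ccl21 copies and Ccl19 are all listed on mouse chromosome 4, Ccl21c outside the gene order used here. All 8 member probes there had differences above 0, with a median of 0.16, against 50.3% of all probes above background. Grouping by chromosome was not planned beforehand. The probes named Ccl21a and Ccl21b lay at only 0.01, and both changed sign under some alternatives, as did the brighter Ccl21c probe. The Ccl21 copies are near-identical, so the 8 probes are not separate readings. Of the 10 member probes with an unadjusted p under 0.05, 3 were from this group. No other chromosome with members above background had all its differences above 0. On chromosomes 6 and 17 all lay below 0, with medians of -0.28 and -0.37, each from the probes of 1 gene. The neighbours in the gene order of GRCm38.p6 were then read, a choice made after these values were seen. Il11ra1, the interleukin-11 receptor alpha chain, stands 1 place before Ccl27a, and its bright probe gave a signal of 4957 and 4393 in transgenic thymus, against 3664 and 4018 in knockin thymus. Its difference was 0.37 (SE 0.10, limma unadjusted p = 0.0043, adjusted p = 0.633), while its dimmer probe differed by -0.05.
Il11ra2, a copy of that gene which stands 4 places before Ccl19, gave 1655 and 1350 in transgenic thymus, against 1149 and 1290 in knockin thymus. It differed by 0.40 (SE 0.102, limma unadjusted p = 0.00332, adjusted p = 0.582). The copies of Il11ra, Ccl27, Ccl19 and Ccl21 in this stretch can share signal, so the single names are uncertain. Among the flanking genes, up to 8 places to either side and with Il11ra1 among them, 11 probes were above background, with a median of -0.0032 and 5 differences above 0.

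**Figure D3:**
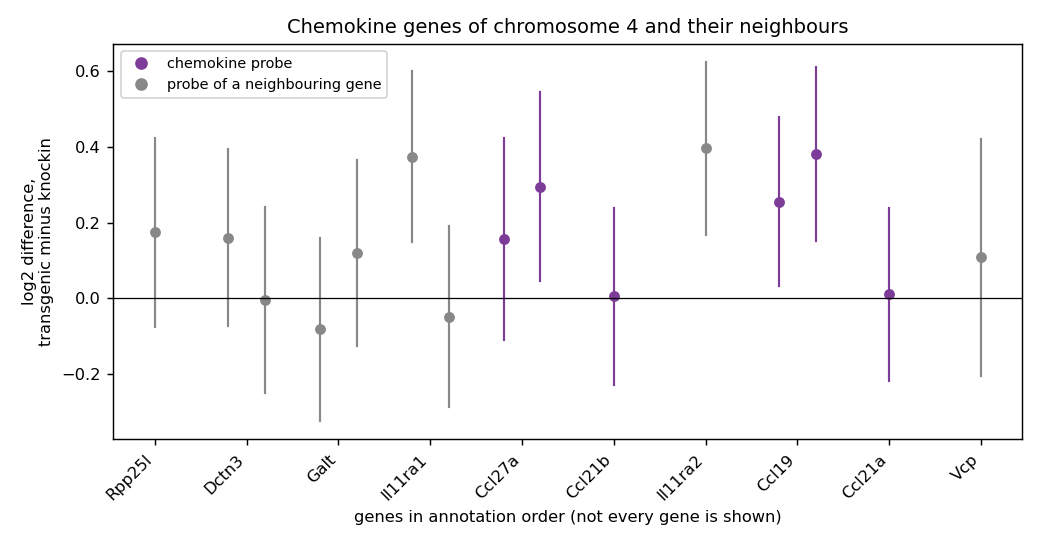
Log2 difference, transgenic minus knockin, of each probe above background (vertical axis, with 95% interval) for the chemokine genes of chromosome 4 and their neighbours in annotation order. Purple marks are chemokine probes and grey marks other genes. Il11ra1, Il11ra2, Ccl27a and Ccl19 each have a probe between 0.29 and 0.40, and Ccl21a and Ccl21b lie at 0.01.

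Cxcl9, Cxcl10 and Cxcl11 are the interferon-induced ligands of Cxcr3. Cxcl9 gave a signal of 977.5 and 943.9 in transgenic thymus, against 724.8 and 989.5 in knockin thymus. The normalised levels did not overlap, and the difference was 0.28 (SE 0.123, limma unadjusted p = 0.0481, adjusted p = 1.00). Knockin replicate 1 was the low array, and without it the difference was 0.16, while it was 0.17 without transgenic replicate 2 and 0.39 without knockin replicate 2. Cxcl10 gave a signal of 535.3 and 553.0 in transgenic thymus, against 476.4 and 659.1 in knockin thymus, a difference of 0.03 (SE 0.137). The probes of Cxcl11 were above background on no array. Cxcr3 itself, the receptor of mature T cells and natural killer cells, was above background on 1 array of each genotype.

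Among the inflammatory CC ligands, Ccl8 and Ccl5 had the lowest differences. Ccl8, a ligand made by macrophages and known in the mouse to act through Ccr8, gave a signal of 263.5 and 251.9 in transgenic thymus, against 361.4 and 330.2 in knockin thymus. The groups did not overlap, and the knockin level was 1.39-fold the transgenic one (log2 difference -0.47, SE 0.141, limma unadjusted p = 0.0080, adjusted p = 0.798). It was -0.26 without knockin replicate 1 and -0.68 without knockin replicate 2. Beside it, the 9 macrophage markers had a summed signal of 12971.5 and 12699 in transgenic thymus, against 14408 and 15368 in knockin thymus. Lyz2 alone gave 5119 and 5319 in transgenic thymus, against 7092 and 5603 in knockin thymus, a large part of these sums. Its normalised levels overlapped, and the median difference of the 9 markers was -0.08. Of the 9, 8 had differences below 0, and Timd4, a receptor for apoptotic cells, stood at -0.35 (limma unadjusted p = 0.0076, adjusted p = 0.786). All 9 were above background, and their part in the Ccl8 value was not tested.

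Ccl5, made by cytotoxic and memory T cells and natural killer cells, gave a signal of 1094 and 736.2 in transgenic thymus, against 994.2 and 1456 in knockin thymus. The signals overlapped, the normalised levels just separated at 9.74 ± 0.24 in transgenic and 10.11 ± 0.24 in knockin thymus (SD, n = 2 each), and the difference was -0.37 (SE 0.148, limma unadjusted p = 0.0311, adjusted p = 1.00). Single arrays moved it, to -0.54 without transgenic replicate 1 or without knockin replicate 1, and to -0.20 without transgenic replicate 2 or without knockin replicate 2. Ccl7, a monocyte attractant, had a difference of -0.23 (SE 0.127) and overlapping groups, and was at -0.10 without knockin replicate 2. Ccl4 had probes at -0.10 and 0.11, the brighter first. Ccl9, Ccl11 and Ccl12 differed by 0.02, 0.01 and 0.07 on their brightest probes, and Ccl6 by 0.10. Ccl24, an eosinophil attractant, was above background on both knockin arrays and on neither transgenic array. Its signals lay close to the background limits, at 152.0 and 148.8 in transgenic thymus, against 156.9 and 165.1 in knockin thymus. The difference was -0.14 (SE 0.101, limma unadjusted p = 0.194, adjusted p = 1.00), which sets no minimum decrease. Ccl3 passed its limit on 1 knockin array, and Ccl1, Ccl2, Ccl22, Ccl28 and the probe named Ccl26l on none.

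Of the remaining CXC ligands, Cxcl4 and Cxcl13 had lower values in transgenic thymus. Cxcl4, the platelet factor that RefSeq lists as Pf4, gave a signal of 158.5 and 170.8 in transgenic thymus, against 188.8 and 195.8 in knockin thymus. The groups did not overlap, and transgenic replicate 1 lay close to its background limit of 156.9. The difference was -0.31 (SE 0.127, limma unadjusted p = 0.0373, adjusted p = 1.00). It was -0.14 without transgenic replicate 1 and -0.36 without knockin replicate 2. Ppbp, the other main platelet chemokine, was above background on no array. Cxcl13, the B cell attractant, had a difference of -0.19 (SE 0.121) with overlapping groups. Cxcl1, a neutrophil attractant, had a difference of -0.10 (SE 0.101, 95% interval -0.33 to 0.13), and Cxcl2, Cxcl5 and Cxcl15 were above background on no array.
In the fit used here, most neutrophil markers had lower signal in transgenic thymus. Of 9 measured, S100a8, S100a9 and Camp passed an adjusted p under 0.05, all lower in transgenic thymus. Differences were below 0 for 7 of the 9, while Csf3r stood at 0.02 and Mmp8, not above background, at 0.12. The summed signal over the 9 was 4944 and 3807 in transgenic thymus, against 9056 and 11765 in knockin thymus. S100a8 alone gave 2563 and 1928 in transgenic thymus, against 5443 and 6720 in knockin thymus, a large part of these sums. Eosinophil markers gave a summed signal of 3196 and 2996 in transgenic thymus, against 5030 and 6355 in knockin thymus. Of these, 2 of 5 passed, and Epx was not above background. Without background correction, or with median scaling, 0 probes of the whole array were lower in transgenic thymus at an adjusted p under 0.05. The neutrophil and eosinophil markers therefore did not pass under these alternatives. Their part in the values of the chemokines that attract these cells was not tested.

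None of the other ligands of thymic stroma had an unadjusted p under 0.05. Xcl1, which places dendritic cells in the medulla, gave a signal of 312.2 and 345.7 in transgenic thymus, against 273.1 and 353.9 in knockin thymus, a difference of 0.18 (SE 0.148). Ccl17, a ligand of Ccr4, gave 247.9 and 249.1 in transgenic thymus, against 229.6 and 223.4 in knockin thymus. Its difference was 0.24 (SE 0.129, limma unadjusted p = 0.0924), and its normalised levels overlapped although the signals did not. It was 0.11 without knockin replicate 2. Cxcl16, the ligand of Cxcr6, had probes at 0.12 (SE 0.107) and -0.04 (SE 0.120), the brighter first, and only on the brighter did the groups not overlap. Cx3cl1 differed by -0.04 (SE 0.104) and Ccl20 by -0.06 (SE 0.108). Ccl20 passed its limit on 3 of the 4 arrays.

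**Figure D4:**
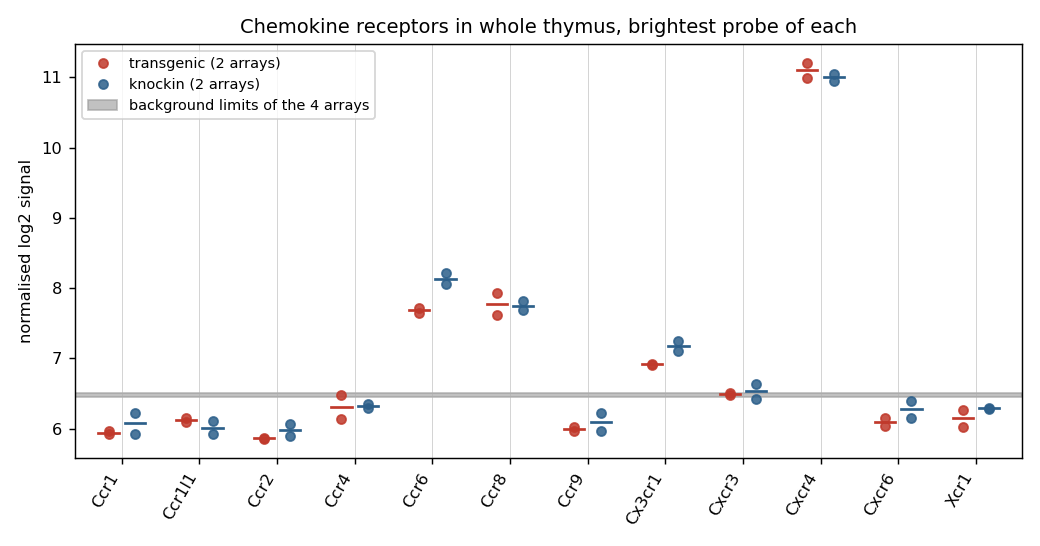
Normalised log2 signal (vertical axis) of 12 receptors, each by its brightest probe, on the 2 transgenic arrays (red, left) and the 2 knockin arrays (blue, right). Short bars are group means and the grey band spans the background limits. Cxcr4, Ccr8, Ccr6 and Cx3cr1 lie above it on all arrays, and Ccr6 and Cx3cr1 have groups that do not overlap.

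Cxcr4, the receptor of Cxcl12 on immature thymocytes, gave a signal of 2508 and 1887 in transgenic thymus, against 1965 and 2434 in knockin thymus. The groups overlapped, with a difference of 0.10 (SE 0.113, 95% interval -0.15 to 0.36). Ccr9, the receptor of Ccl25 and known as abundant on double-positive thymocytes, had 1 probe, with a signal of 132.4 and 126.8 in transgenic thymus, against 127.0 and 141.8 in knockin thymus. That probe was above background on no array, while all 10 markers of double-positive thymocytes were above it, so it gives no level of Ccr9 here. Ccr4, which thymocytes gain after positive selection, passed its limit on 1 transgenic array. Cxcr6, Xcr1, Ccr1, Ccr1l1 and Ccr2 passed it on none.

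Ccr6 had the smallest p of all members. It is the receptor of Ccl20 and is carried by B cells and by some T cells. Its brighter probe gave a signal of 289.3 and 247.0 in transgenic thymus, against 317.6 and 396.0 in knockin thymus. The groups did not overlap, and the knockin level was 1.37-fold the transgenic one (log2 difference -0.45, SE 0.107, limma unadjusted p = 0.0019, adjusted p = 0.463). Leaving out each array in turn gave -0.53 to -0.38, with -0.38 without knockin replicate 2. The dimmer probe gave a signal of 203.3 and 177.1 in transgenic thymus, against 226.5 and 215.0 in knockin thymus, again without overlap, and a difference of -0.28 (SE 0.126, limma unadjusted p = 0.0534), which was -0.12 without knockin replicate 1 and -0.44 without knockin replicate 2.
Beside Ccr6, the 5 B cell markers had a summed signal of 1369 and 1308 in transgenic thymus, against 1452 and 1420 in knockin thymus. Cd79a had a difference of -0.28 (limma unadjusted p = 0.025, adjusted p = 1.00) and Cd79b of 0.05, while Ms4a1 and Pax5 were not above background. Their part in the Ccr6 value was not tested.

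Cx3cr1, the fractalkine receptor of macrophages and monocytes, gave a signal of 192.3 and 177.0 in transgenic thymus, against 209.6 and 215.5 in knockin thymus. The groups did not overlap, and the difference was -0.26 (SE 0.105, limma unadjusted p = 0.0354, adjusted p = 1.00). It was -0.19 without knockin replicate 1 and -0.33 without knockin replicate 2, and the macrophage markers beside it are those given for Ccl8. Ccr8 differed by 0.03 (SE 0.125, 95% interval -0.26 to 0.31).

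**Figure D5:**
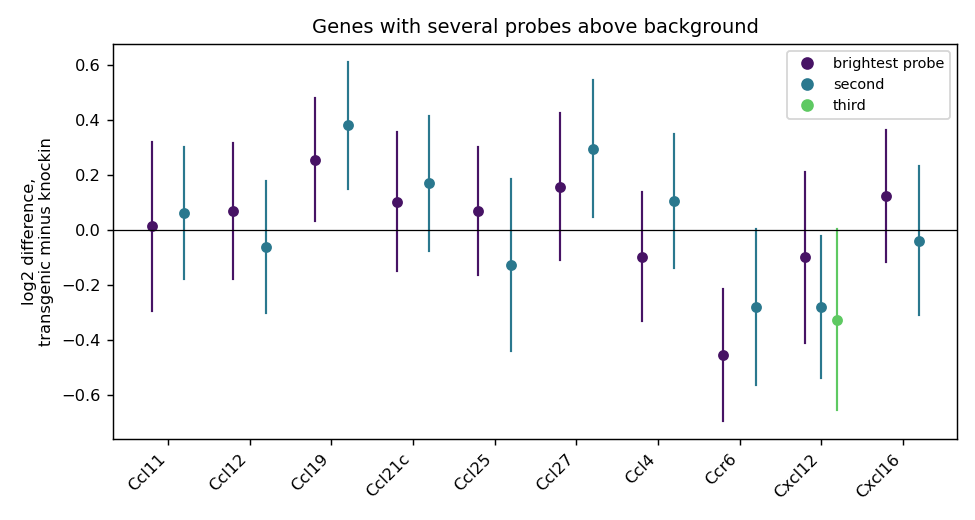
Log2 difference, transgenic minus knockin, with its 95% interval (vertical axis), for 10 genes with more than 1 probe above background, ordered from the brightest probe to the dimmest within each gene. Both probes of Ccl19 lie above 0, and both of Ccr6 and all 3 of Cxcl12 lie below it, while Ccl4, Ccl12, Ccl25 and Cxcl16 have probes on either side.

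Probes of the same gene can be set against each other within these arrays. Of 10 genes with several probes above background, 6 had all probes on the same side of 0, namely Ccl11, Ccl19, Ccl21c, Ccl27, Ccr6 and Cxcl12, and 4 did not. Among these 4 the widest split was in Ccl4, at -0.10 and 0.11.

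Set side by side as ligand and receptor, 19 pairs known from thymus and lymphoid tissue could be read, counting receptors that the array lists under older names, such as BLR1 for Cxcr5 and IL8RB for Cxcr2. In 4 pairs both partners were above background on all 4 arrays. These were Cxcl12 with Cxcr4, Cx3cl1 with Cx3cr1, Ccl8 with Ccr8, and Cxcl13 with Cxcr5. In 8 further pairs the ligand was and the receptor was not, as for Ccl25 and Ccr9, Xcl1 and Xcr1, and Cxcl16 and Cxcr6. The differences of partners stood at -0.47 for Ccl8 beside 0.03 for Ccr8, at -0.06 for Ccl20 beside -0.45 for Ccr6, and at -0.04 for Cx3cl1 beside -0.26 for Cx3cr1.

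Downstream and around the receptors, 41 other genes of chemokine signalling were measured, 34 of them above background. By limma, 0 of the 41 passed an adjusted p under 0.05. At an unadjusted p under 0.05 there were 1 higher and 4 lower in transgenic thymus, and the median difference of the 41 was -0.027. Over the array, 4.63% of all probes and 8.82% of those above background passed that unadjusted p. Grk2, the kinase that switches off activated chemokine receptors, had the smallest p. It gave a signal of 6466 and 4656 in transgenic thymus, against 7634 and 8566 in knockin thymus, without overlap, and a difference of -0.47 (SE 0.125, limma unadjusted p = 0.00402, adjusted p = 0.621). It was -0.31 without transgenic replicate 2. Its dimmer probe differed by -0.29 (SE 0.10, limma unadjusted p = 0.0179). Dock2, which activates Rac below the receptors in lymphocytes, had a difference of 0.32 (SE 0.143), Gnb1, a G protein beta subunit, -0.27 (SE 0.118), and Ctsg, a neutrophil protease that can trim chemokines, -0.31 (SE 0.123). Dock2 was at 0.10 without transgenic replicate 1, Gnb1 at -0.13 without knockin replicate 2, and Ctsg at -0.18 without transgenic replicate 2, each then with an unadjusted p above 0.05. The remaining gene was Ppbp, whose brighter probe was not above background. Its dimmer probe, also not above background, differed by 0.01. Gnai2 and Rac2, the main Gi subunit and Rac of thymocytes, differed by 0.01 and 0.16.

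The sequence before the start of 3 genes is shown because Ccl19, Ccr6 and Ccl8 hold the largest difference above 0, the smallest p and the largest difference below 0. Each run is the 250 bases before the start in RefSeq, GRCm38.p6, read 5′ to 3′ on the strand of the gene. Capitals mark letters that match a searched motif, on either strand. These are the interferon-stimulated response element (GAAA, 2 free bases, GAAA), the gamma-activated site (TTC, 3 free bases, GAA), a kappaB site (GGG, 2 free bases, TTTCC) and a TATA box (TATAAA).
Ccl19, chr4:42756366-42756615, minus strand: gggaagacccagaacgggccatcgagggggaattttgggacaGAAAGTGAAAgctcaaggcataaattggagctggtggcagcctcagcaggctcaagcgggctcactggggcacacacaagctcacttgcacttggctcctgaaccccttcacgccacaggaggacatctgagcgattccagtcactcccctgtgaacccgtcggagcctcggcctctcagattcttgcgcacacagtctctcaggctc
Ccr6, chr17:8235793-8236042, plus strand: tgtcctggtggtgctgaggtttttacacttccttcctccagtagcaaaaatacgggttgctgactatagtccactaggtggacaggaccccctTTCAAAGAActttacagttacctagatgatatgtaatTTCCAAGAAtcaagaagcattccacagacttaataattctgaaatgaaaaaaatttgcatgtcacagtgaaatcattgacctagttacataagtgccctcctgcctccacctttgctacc
Ccl8, chr11:82114935-82115184, plus strand: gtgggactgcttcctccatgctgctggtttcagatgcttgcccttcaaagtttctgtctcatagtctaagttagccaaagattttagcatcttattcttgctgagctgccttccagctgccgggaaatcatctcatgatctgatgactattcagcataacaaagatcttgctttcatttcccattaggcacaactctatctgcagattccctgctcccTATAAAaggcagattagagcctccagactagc
Ccl19 held 1 interferon-stimulated letter match, Ccr6 held 2 gamma-activated ones and Ccl8 a TATA box. Counted over windows of 300 bases, 250 before and 50 after the start, 38 of the member genes had 42 promoters in the RefSeq table. The interferon-stimulated motif was in 3 of these (Ccl19, Cxcl10 and Cxcl14), a share of 7.14% against 3.44% of all promoters. The gamma-activated motif was in 9.52% against 8.30%, the kappaB motif in 9.52% (Ccl9, Ccl20, Cxcl1 and Cxcl2) against 1.63%, and the TATA box in 26.2% against 13.6%. A match of letters is a description of the sequence, not a bound site, and Ccr6 has a second start in the table, before which none of the 4 motifs was found.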

How the data were processed

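Total RNA of whole thymus from 2 transgenic and 2 knockin samples was read on Illumina MouseWG-6 v2.0 arrays, 1 sample per array. The deposited scanner table holds average bead signal intensity, exported by GenomeStudio 1.9.0 without normalization per the file headers. It has no detection p-values or control probes, so neqc could not be used. The authors' second table holds processed intensity on a linear scale, made by a method that is not given in the sources used here. The identifiers in it are not paired with probe names, so only a count over all probes was taken from it, on log2(value + 8).

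Signals were background-corrected by normexp (offset 50), put on the log2 scale, quantile-normalised and fitted in R 4.3.3 with limma 3.58.1 (lmFit, then eBayes, two-sided, 2 against 2 arrays, all 45281 probes, Benjamini-Hochberg, threshold 0.05). The offset and quantile steps shrink differences of dim probes and would remove a shift of the whole transcriptome. The same code was tested on simulated data. The background limit of an array lies 3 SDs over its most common log2 signal, the SD taken from the values on the lower side. Names were matched to the RefSeq gene table of GRCm38.p6, all 50 to a single gene, 3 of them through a synonym. A gene with several probes is given by its brightest, and the text names members above background on both arrays of a genotype, members with an unadjusted p under 0.05, and other pathway genes past that p. Members and lists were chosen with earlier results of these data known. Replicate numbers come from the titles and no label says that they pair samples. Over 17980 probes, the deviations of same-numbered arrays from their group means correlated at r = -0.343, so they were not treated as pairs.

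The alternatives tried were leaving out each array, a filter on dim probes, signals without background correction, an offset of 16, cyclic loess or median scaling, an intensity trend with robust priors, the replicate block, a threshold of 0.10 and the authors' table. Crossed pairs were added after seeing the data. Some genes measured on the array are not reported here by name.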

Additional observations from a re-analysis of the deposited data

How the results depend on the processing

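No member probe passed an adjusted p under 0.05 under any alternative but the crossed pairs, chosen after seeing the data, with which 2 members and 364 probes in all passed. With the replicate block 0 members and 38 probes in all passed, and 8 members had an unadjusted p under 0.05 (11.3%, against 3.21% of all probes). The count of 36 over all probes became 3 without background correction, 70 with an offset of 16, 2 with median scaling, 112 with robust priors and an intensity trend, and 0 in the authors' table, and 24 to 89 when an array was left out. Members with an unadjusted p under 0.05 numbered 10 (14.1%, against 4.63% of all probes). With an offset of 16 there were 5 (7.04% against 5.21%), 4 of them among the 10. With the intensity trend there were 5 (7.04% against 5.19%), and 4 when only probes above background were tested (9.09% against 4.95%). When an array was left out, some of the 10 no longer had such a p, and other member probes did. No member had a changed sign among these 10 probes, whereas 18 of the 44 named probes changed sign under some alternative, all with a difference of at most 0.176 in size. The median difference of the members was -0.077 to 0.040 when an array was left out, and -0.040 with median scaling, so its sign is not settled. The authors' table gave no value for members. Dim probes such as Ccr9 carry only bounds, and 2 arrays per genotype limit every difference.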
